A study of Canis lupus familiaris with 12 samples.

Results

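The genes described here move zinc, iron and copper across membranes, store iron, or oxidise it as it leaves the cell, together with 3 magnesium transporters of the SLC41A family that the same rule takes in. A probe set, the group of short array probes that measures 1 transcript, was taken when the platform annotation gave it a single gene symbol and that symbol started with SLC30A or SLC39A or was one of 18 named genes. This rule used names and no measured value. It gave 66 probe sets for 39 genes, of 15115 genes measured by 29254 such probe sets. For 2 symbols of the rule, TF and ATP7B, and for SLC30A1, no probe set naming that gene alone was among them, and these genes are not analysed here. A gene with several probe sets is represented by the brightest of them, averaged across the 12 arrays.

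Expression was measured on 12 dog Affymetrix arrays in MDCK II tet-off cells, an established epithelial line from dog kidney tubule kept under G418. The 2D group (6 arrays, the control in the study's design) was grown in type I collagen culture as flat sheets and the 3D group (6 arrays) as multicellular cysts, both to day 8 with medium changed on days 3 and 6, and all cells were freed from the gel with collagenase. Each array received RNA pooled from 4 separate samples of this 1 line, so p-values measure the spread between pools. Values are log2(intensity + 1) throughout, and every difference is 3D minus 2D on that scale, with the standard error (SE) of the fit where 1 is given. Genes that passed are those with a Benjamini-Hochberg adjusted p under 0.05 in limma over all 42924 tested probe sets.

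Zinc is carried by 2 families that work in opposite directions: SLC30A proteins (ZnT) take zinc out of the cytosol into vesicles, organelles or the medium, and SLC39A proteins (ZIP) bring it in. Iron enters on transferrin through its receptor TFRC or through the ferrous transporter SLC11A2, is held in ferritin shells made of FTH1 and FTL chains, and leaves through ferroportin, SLC40A1, beside which the copper enzymes ceruloplasmin (CP) and hephaestin (HEPH) oxidise it for binding to transferrin. Copper enters through SLC31A1, is handed over by the chaperone ATOX1 and is pumped by ATP7A. In kidney tubules several of these carriers lie in the apical or basolateral face of polarised cells and recover metals from the filtrate.

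On the arrays all 6 kidney epithelial markers lay above the level of control probe sets that match no dog gene (the 95th percentile of 59 such sets, 5.71 on average). Their summed intensity was 25904 to 29645 in 2D and 31114 to 32870 in 3D. Among them CDH1, KRT8 and KRT18 were higher in 3D, CDH16 was lower, and EPCAM and PAX8 did not pass. Of 6 fibroblast markers, 2 had a mean above that level, 2 fell, and COL1A2 was at or below it on every array (summed intensity 321 to 361 in 2D and 287 to 315 in 3D). Of 4 endothelial markers, PECAM1 was at or below it on every array and CDH5, VWF and KDR were above it on all 12, with PECAM1 and KDR lower in 3D (summed intensity 336 to 374 and 304 to 340). All 5 leukocyte markers had a mean above it, with PTPRC and CD3E lower and CD14 higher in 3D (summed intensity 484 to 526 and 466 to 539). In this 1 epithelial line CD3E averaged 7.27 in 2D and 7.08 in 3D, and KDR 6.91 and 6.60. A signal above the control level therefore need not mean that a gene is expressed, which was not tested. The log2 ratio of 5′ to 3′ signal of actin and GAPDH controls, a measure of RNA integrity, was -0.91 ± 0.14 (SD, n = 6) in 2D and -0.54 ± 0.17 (SD, n = 6) in 3D, with an exact two-sided permutation p of 0.00866 over 924 assignments. Replicate 2 of 3D and replicate 6 of 2D stood apart from the others of their groups on the second principal component, which held 9.49% of the variance. Their array weights were 0.41 and 0.46, the lowest of the 12. In bulk RNA of this kind, fewer cells of a type and less RNA per cell cannot be told apart.

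In 3D the ferroxidases CP and HEPH and 2 magnesium transporters were higher, the zinc importer SLC39A4 was lower, and the 2 ferritin chains moved in opposite directions. Of the 39 genes, 10 rose, 9 fell and 20 did not pass (limma). Over all genes measured, 19.8% rose and 22.9% fell, so the counts here are near that background in both directions. The median difference was 0.07 over the 39 genes and -0.05 over all genes. The median size of a difference, whatever its sign, was 0.16 and 0.14. In 5 genes all 3D values lay above all 2D values and in 6 all lay below, where 13.2% and 9.49% of all genes did so. Changes of at least 2-fold were seen for CP and HEPH, which rose, and for SLC39A4, which fell. At the other end, 9 of the 19 genes that passed had changed by less than 0.25 on the log2 scale, a share of 47.4%, against 44.7% of all genes that passed.

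**Figure D1:**
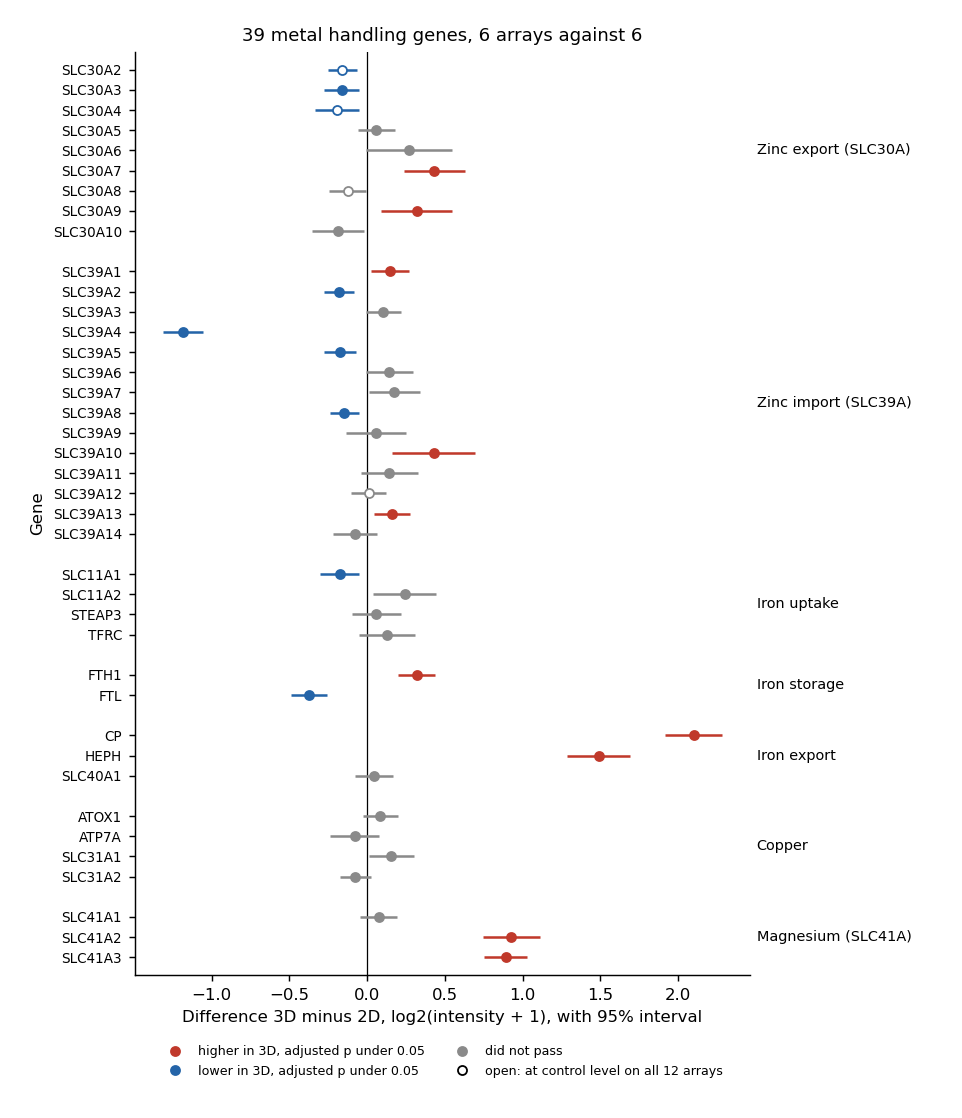
Difference between 3D and 2D in log2(intensity + 1) for each of the 39 genes (x axis), grouped by role (y axis), with the 95% interval from limma. CP at 2.10, HEPH at 1.49, SLC41A2 at 0.93 and SLC41A3 at 0.89 lie far to the right and SLC39A4 at -1.19 far to the left, while all other genes lie between -0.37 and 0.43.

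Of the genes that passed, CP, HEPH, SLC39A4, SLC41A2 and SLC41A3 passed under every alternative tried. FTH1 and FTL failed in only 1 of them, the test against a minimum change of 1.2-fold. The other 12 all lost their call when the RNA control ratio was entered as a covariate. That fit left 5 genes raised and 3 lowered, 7 of these 8 shared with the fit without it. SLC39A9 was the gene it added, at -0.31 (adjusted p = 0.0223). Over all 42924 probe sets, the covariate took raised calls from 7171 to 4303 and lowered calls from 9437 to 3624. The sign of the difference turned in 12 of the 39 genes, of which SLC30A9 had passed and 11 had not. The ratio differs between the groups, and the median SE of the 39 genes was 0.09 with it and 0.06 without it. Its part in the small changes was not tested. Without 3D replicate 2, 16 genes rose and 11 fell, among them all 19 of the fit with every array. Calls over all probe sets also grew without that array, from 7171 to 8033 raised and from 9437 to 11016 lowered.

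Among the zinc exporters, SLC30A7 and SLC30A9 rose, SLC30A2, SLC30A3 and SLC30A4 fell, and 4 of 9 did not pass. None of these changes reached 0.5 on the log2 scale. SLC30A7, which loads zinc into the Golgi and early secretory pathway, had values of 8.12 (lowest), 8.26 (median) and 8.30 (highest) in 2D and 8.27, 8.68 and 8.97 in 3D. The groups overlapped through 1 array, 3D replicate 5, and the mean difference was 0.43 (SE 0.09, limma adjusted p = 0.00166). Its second probe set differed by 0.15 and did not pass (adjusted p = 0.124). With the RNA ratio in the fit the difference was 0.45, with an adjusted p of 0.0514.

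SLC30A9, which exports zinc from mitochondria, had a lowest value of 7.55, a median of 7.86 and a highest of 8.09 in 2D, against 7.67, 8.23 and 8.34 in 3D. The 3D array at 7.67 was replicate 2, far from the next at 8.17. The difference was 0.32 (SE 0.11, limma adjusted p = 0.0277), and it was -0.02 (adjusted p = 0.951) with the RNA ratio in the fit, so its direction turned. Its call was also lost on leaving out 2D replicate 2 (adjusted p = 0.0543), 2D replicate 6 (0.0624), 3D replicate 1 (0.0637), 3D replicate 4 (0.0663) or 3D replicate 5 (0.0561).

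SLC30A3, known for filling synaptic vesicles with zinc, ran through 7.04, 7.14 and 7.31 in 2D and 6.96, 6.98 and 7.07 in 3D. It differed by -0.16 (SE 0.05, limma adjusted p = 0.0229), a narrow shift in which the groups overlapped. Without 2D replicate 2 its adjusted p was 0.0542. Of its other probe sets, 1 fell by 0.24 with no overlap and 1, at the control level, did not pass. SLC30A2 and SLC30A4, vesicle transporters known from zinc secretion into milk, lay at or below the control level on all 12 arrays, so no fold is given. SLC30A2 signal was 5.61 to 5.68 in 2D and 5.36 to 5.57 in 3D (adjusted p = 0.0104), and SLC30A4 signal was 5.32 to 5.65 and 5.21 to 5.51 (adjusted p = 0.03). The call of SLC30A4 was lost without any 1 of 8 arrays, 2D replicates 1, 2 and 6 and 3D replicates 1, 3, 4, 5 and 6, with adjusted p between 0.0513 and 0.0664.

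The 4 exporters that did not pass differed by -0.19 to 0.27. SLC30A5 and SLC30A6, which form a pair in the secretory pathway, differed by 0.06 (95% interval -0.06 to 0.18) and by 0.27 (-0.01 to 0.54). For SLC30A10, a manganese exporter despite its family, the interval was -0.35 to -0.02 and the adjusted p 0.0667. SLC30A8, the insulin granule transporter, was at the control level throughout.

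Of the 14 zinc importers, SLC39A4 stood out. ZIP4, its product, is the apical transporter for zinc uptake in the intestine, and its loss causes the zinc deficiency acrodermatitis enteropathica. SLC39A4 measured 9.25 (lowest), 9.48 (median) and 9.61 (highest) in 2D and 8.14, 8.30 and 8.35 in 3D. Every 3D array lay below every 2D array, by 0.90 at the nearest pair. The mean was 2.28-fold lower in 3D (log2 difference -1.19, SE 0.06, limma adjusted p = 3.34e-10). Fitted together with the RNA ratio, the difference was -1.11 (adjusted p = 8.78e-07), and over all alternatives it ran from -1.28 to -1.11. The gene was measured by 1 probe set.

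A further 3 importers fell and 3 rose, each by less than 0.5 on the log2 scale, and 7 did not pass. SLC39A10, a plasma membrane importer, had values of 9.45, 10.03 and 10.31 in 2D and 10.12, 10.44 and 10.62 in 3D. The low 2D value was replicate 6, and the groups overlapped. It rose by 0.43 (SE 0.12, limma adjusted p = 0.0135), and its second probe set rose by as much, 0.43 (adjusted p = 0.0234). The adjusted p with the RNA ratio was 0.156, at a difference of 0.45.

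SLC39A13, a ZIP of the secretory pathway needed in connective tissue, had 2D values of 7.76, 7.91 and 7.99 and 3D values of 7.88, 8.06 and 8.15, and rose by 0.16 (SE 0.05, limma adjusted p = 0.0284). The groups overlapped, and the lowest 3D value was again replicate 2. Another of its 3 probe sets rose by 0.30 and the third differed by 0.02. The call was lost without 2D replicate 3 (adjusted p = 0.0648) and without 3D replicate 1, 3 or 4 (0.0525, 0.0614 and 0.0703). SLC39A1, a plasma membrane importer present in most tissues, went from 8.62, 8.72 and 8.86 in 2D to 8.68, 8.90 and 8.94 in 3D. Its difference of 0.15 (SE 0.06, limma adjusted p just under the threshold of 0.05) passed by the narrowest margin of the 19. It lost its call without any 1 of 10 arrays, all but 2D replicate 6 and 3D replicate 2, with adjusted p between 0.0526 and 0.104.

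The importers that fell by small amounts had groups that just failed to overlap, those of SLC39A2 by less than the printed decimals show. SLC39A2 had values of 7.36, 7.39 and 7.48 in 2D and 7.15, 7.21 and 7.36 in 3D, a difference of -0.18 (SE 0.05, limma adjusted p = 0.00515). In the same way SLC39A5, a basolateral ZIP of the gut and pancreas, measured 7.67, 7.76 and 7.94 in 2D and 7.54, 7.60 and 7.66 in 3D (difference -0.17, SE 0.05, adjusted p = 0.0111). SLC39A8, which also carries manganese, measured 7.08, 7.12 and 7.21 in 2D and 6.92, 6.99 and 7.06 in 3D (difference -0.15, SE 0.04, adjusted p = 0.0143). The widest of these gaps between the groups was 0.02. The other 3 probe sets of SLC39A8 did not pass, and 2 of them were at the control level. With the RNA ratio in the fit the 3 differences were -0.17, -0.20 and -0.14, and none passed.

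The 7 importers that did not pass were SLC39A3, SLC39A6, SLC39A7, SLC39A9, SLC39A11, SLC39A12 and SLC39A14, with differences from -0.08 to 0.17. SLC39A7, which releases zinc from the endoplasmic reticulum, differed by 0.17 (95% interval 0.01 to 0.34). SLC39A14, which carries manganese and iron, differed by -0.08 (-0.22 to 0.06). Without 3D replicate 2, SLC39A6, SLC39A7 and SLC39A11 rose by 0.21, 0.23 and 0.21 (adjusted p = 0.00117, 0.0139 and 0.0279). Their differences with the RNA ratio in the fit were -0.07, 0.10 and -0.20, so those of SLC39A6 and SLC39A11 turned, and none of the 3 passed.

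**Figure D2:**
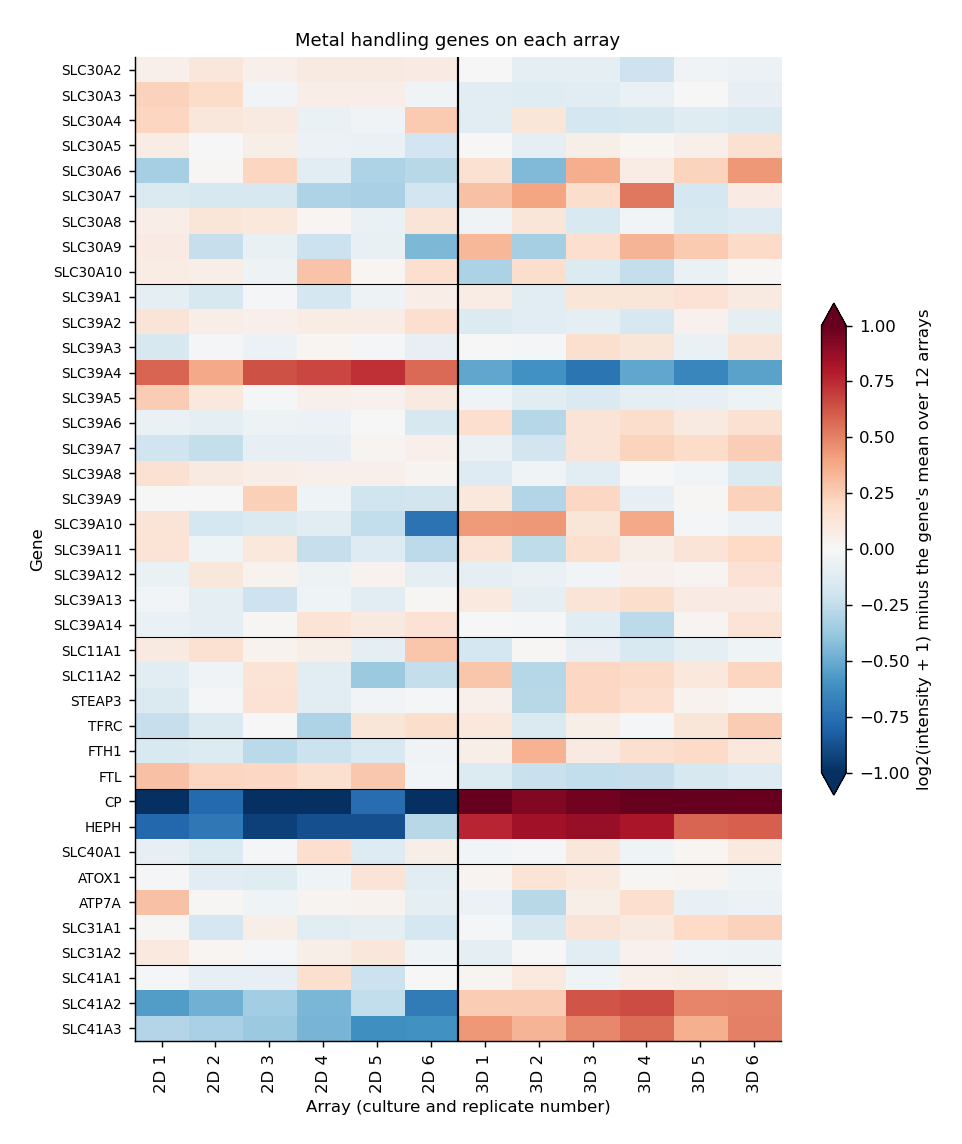
Value of each gene on each array minus the gene's own mean over 12 arrays, in log2(intensity + 1) units (colour; the scale ends at -1 and 1, and arrowheads mark that CP goes past it), with the 6 arrays of 2D left and the 6 of 3D right of the line. CP, HEPH, SLC41A2 and SLC41A3 are blue across 2D and red across 3D and SLC39A4 is the reverse, while 3D replicate 2 departs from its group in several of the paler lines.

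In the cells' zinc buffer, metallothionein signal varied more between 2D arrays than between 3D arrays. Metallothioneins are small cysteine-rich proteins that bind zinc and copper, and their genes are induced by zinc through the factor MTF1. MT1E had 2D values of 11.93 (lowest), 12.90 (median) and 14.14 (highest) and 3D values of 11.74, 11.96 and 12.63. Its difference of -0.96 (SE 0.31, limma adjusted p = 0.023) passed, with overlap. The highest 2D values were those of replicates 5 and 6. The call was lost without 2D replicate 5 (difference -0.74, adjusted p = 0.0506), 2D replicate 6 (-0.77, 0.0516) or 3D replicate 1 (-0.89, 0.0506), and with the RNA ratio (-0.41, 0.626). MT2A was highest on the same 2D arrays, with 14.02 and 13.90 against 12.76 to 13.25 on the other 4, and 12.98 to 13.31 in 3D. It differed by -0.19 and did not pass (adjusted p = 0.394). The probe set of MT1E can bind RNA of related metallothionein genes, so which of them it measures is uncertain. MT4 was at or below the control level on every 3D array and on 4 of 6 in 2D, and did not pass (adjusted p = 0.0673). MTF1 itself measured 8.90 on average in both groups (difference 0.00, 95% interval -0.08 to 0.09).

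By their brightest probe sets, the genes of iron uptake showed little difference. Of 4 measured, SLC11A1 fell and SLC11A2, TFRC and STEAP3 did not pass. TFRC, the transferrin receptor, had values of 6.27 (lowest), 6.50 (median) and 6.75 (highest) in 2D and 6.43, 6.65 and 6.83 in 3D. The groups overlapped along most of their length, with a difference of 0.13 (95% interval -0.06 to 0.31, limma adjusted p = 0.251). STEAP3, the endosomal reductase that frees iron for transport, differed by 0.06 (-0.10 to 0.22).

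SLC11A2 (DMT1), which carries ferrous iron out of endosomes and across the apical face of tubule cells, measured 7.78, 8.04 and 8.28 in 2D and 7.87, 8.35 and 8.43 in 3D. The 3D value of 7.87 was replicate 2, and the other 5 were 8.25 or higher. The difference was 0.24 (SE 0.10, limma adjusted p = 0.0557), 0.32 (adjusted p = 0.00284) without that array, and -0.17 (adjusted p = 0.193) with the RNA ratio in the fit, so its direction turned. Among its other probe sets, 1 rose by 0.51 with no overlap (7.36 ± 0.19 to 7.86 ± 0.12, SD, n = 6; adjusted p = 0.00013) and 1 differed by 0.10 without passing. Counting arrays left out, SLC11A2 passed in 6 of 23 alternatives. Among these were the mean over its probe sets (0.28, limma adjusted p = 0.00871), array weights (0.27, 0.0109) and median centring (0.26, 0.0411). SLC11A1, a metal transporter of macrophage phagosomes, measured 6.32, 6.48 and 6.68 in 2D and 6.23, 6.32 and 6.42 in 3D, and fell by 0.18 (SE 0.06, adjusted p = 0.0247). The groups overlapped. Another of its probe sets, not above the control level on any array, passed as higher (adjusted p = 0.0307), the only case among the 39 genes of calls in both directions. The call of SLC11A1 was lost without 2D replicate 2 or 6 or 3D replicate 1 or 4 (adjusted p = 0.0526, 0.0504, 0.0577 and 0.0566). Of the 5 leukocyte markers, PTPRC and CD3E fell by 0.17 and 0.19, CD14 rose by 0.43, and CD68 and CSF1R did not pass, and their part in the change of SLC11A1 was not tested.

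Both ferritin chains changed, in opposite directions. FTH1, the heavy chain that oxidises iron as it enters the shell, measured 9.37 (lowest), 9.49 (median) and 9.61 (highest) in 2D and 9.69, 9.77 and 9.98 in 3D. All 3D values were above all 2D values, and FTH1 rose by 0.32 (SE 0.06, limma adjusted p = 0.000323), or 1.25-fold. FTL, the light chain that favours the mineral core, measured 13.90, 14.14 and 14.22 in 2D and 13.68, 13.74 and 13.80 in 3D. Here all 3D values were below all 2D values, and FTL fell by 0.37 (SE 0.05, adjusted p = 5.65e-05), 1.29-fold lower. The difference between the 2 chains on the same array thus shifted by 0.69 in favour of FTH1, with no overlap between groups. Both calls held with the RNA ratio in the fit, at 0.47 (adjusted p = 0.000459) and -0.42 (adjusted p = 0.00321). Each chain was measured by 1 probe set, and that of FTL is of a type that can bind other members of a family or their pseudogenes.

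**Figure D3:**
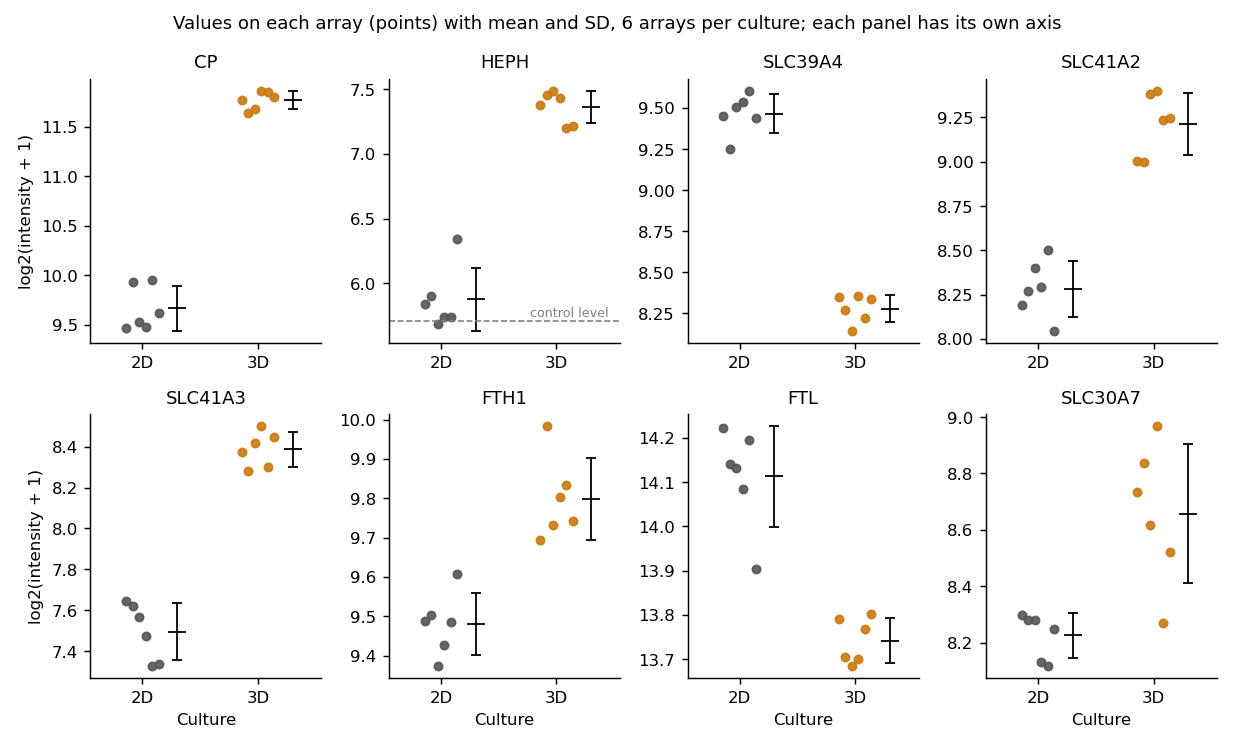
Values of 8 genes on each array (points, log2(intensity + 1), each panel with its own axis that does not start at 0), with mean and SD over 6 arrays beside them. In 7 panels the 2D and 3D points are apart, and in that of SLC30A7 the lowest 3D point, 8.27, falls among the 2D points; the dashed line in the HEPH panel is the mean control level of 5.71.

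The iron export genes held the 2 largest increases of all 39. CP, ceruloplasmin, is a copper-carrying ferroxidase that the liver secretes into plasma and that some epithelia also make. It measured 9.47 (lowest), 9.58 (median) and 9.96 (highest) in 2D and 11.64, 11.78 and 11.86 in 3D. The 2 groups were 1.68 apart at their nearest values. CP was 4.29-fold higher in 3D (log2 difference 2.10, SE 0.09, limma adjusted p = 3.11e-11). Its second probe set rose from 7.94 ± 0.25 to 10.29 ± 0.11 (SD, n = 6), by 2.35. Over all alternatives the difference stayed between 2.05 and 2.23.

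HEPH, the membrane-bound ferroxidase of the gut and other epithelia, measured 5.69, 5.79 and 6.34 in 2D and 7.20, 7.41 and 7.49 in 3D. In 2D it was near the control level, above it on 5 of 6 arrays, and the array at 6.34 was replicate 6. The mean was 2.81-fold higher in 3D (log2 difference 1.49, SE 0.10, limma adjusted p = 5.02e-09). Changes from a signal this dim may be understated, which was not tested. SLC40A1, the exporter that both enzymes serve, measured 6.19, 6.27 and 6.49 in 2D and 6.28, 6.33 and 6.44 in 3D. The 3D values lay inside the range of 2D, with a difference of 0.05 (95% interval -0.08 to 0.17, adjusted p = 0.539). Its second probe set rose by 0.26, from 6.14 ± 0.08 to 6.40 ± 0.09 (SD, n = 6; adjusted p = 0.000929), with no overlap. The 2 probe sets of SLC40A1 thus gave different calls, both at signals less than 1 log2 unit above the control level.

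Other genes of iron handling, taken from textbook lists, were also mixed. Of 17 measured, 2 rose, 6 fell and 9 did not pass, where 19.8% of all genes rose and 22.9% fell. IREB2 encodes IRP2, which binds iron-responsive elements in ferritin and transferrin receptor messages when iron is low. It measured 8.40 to 8.65 in 2D and 8.93 to 9.16 in 3D and rose by 0.53 (SE 0.05, limma adjusted p = 9.41e-07), as did its second probe set. ACO1, the other such protein, measured 11.35 to 11.46 and 11.32 to 11.46, with a difference of -0.05 (95% interval -0.14 to 0.04). NCOA4, the receptor that delivers ferritin to lysosomes, measured 11.60 to 11.86 in 2D and 11.31 to 11.58 in 3D and fell by 0.28 (SE 0.06, adjusted p = 0.0012). Of the 3 probe sets of NCOA4, 2 fell and 1 did not pass. STEAP1, of the metalloreductase family, measured 10.43 to 10.51 in 2D and 9.80 to 10.21 in 3D and fell by 0.54 (SE 0.06, adjusted p = 5.26e-06). In IREB2, NCOA4 and STEAP1 the 2D and 3D values did not overlap. Of the ferroxidases, HEPHL1, a relative of HEPH, differed by -0.09 and did not pass (adjusted p = 0.269). CYBRD1, an apical ferric reductase, passed as higher (adjusted p = 0.00799), but it was at or below the control level on every 2D array and above it on 5 of 6 in 3D, at 5.85 or less.

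Heme and iron-sulphur genes counted 5 raised and 5 lowered of 18, where 19.8% of all genes rose and 22.9% fell. FLVCR1, known as a heme exporter and choline carrier of the plasma membrane, had 2D values of 6.85 (lowest), 7.07 (median) and 7.36 (highest) and 3D values of 7.48, 8.23 and 8.34. It rose 2.04-fold (log2 difference 1.03, SE 0.13, limma adjusted p = 8.72e-06) with no overlap, and by 0.57 (adjusted p = 0.0116) with the RNA ratio in the fit. Its relative FLVCR2 fell by 0.41 (SE 0.06, adjusted p = 3.37e-05), from 7.19 to 7.42 in 2D to 6.72 to 7.02 in 3D, again with no overlap. Of the 3 probe sets of FLVCR2, 2 fell and 1 did not pass. SLC25A37, mitoferrin, which carries iron into mitochondria, rose by 0.28 (adjusted p = 0.000196), and 1 of its 3 probe sets did not pass. UROS, an enzyme of heme synthesis, fell by 0.36 (adjusted p = 0.00109) with overlap, and 1 of its 3 probe sets did not pass. With the RNA ratio in the fit its difference was -0.22 and did not pass (adjusted p = 0.207). HMOX1, the inducible enzyme that breaks down heme, was at or below the control level on all 2D arrays and on 4 of 6 in 3D, and did not pass (adjusted p = 0.512).

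None of the 4 copper genes measured passed. SLC31A1 (CTR1), the high-affinity importer, had values of 6.31 (lowest), 6.38 (median) and 6.54 (highest) in 2D and 6.32, 6.59 and 6.71 in 3D. The difference was 0.16 (95% interval 0.01 to 0.30, limma adjusted p = 0.0771). It was 0.21 (adjusted p = 0.0111) without 3D replicate 2, and -0.04 (adjusted p = 0.819) with the RNA ratio in the fit, where its direction turned. ATP7A, the pump that loads copper enzymes and expels copper, measured 5.58, 5.69 and 5.97 in 2D and 5.40, 5.62 and 5.84 in 3D. That is around the control level, above it on 2 arrays of 2D and 3 of 3D, and no fold is given (adjusted p = 0.404). ATOX1 differed by 0.09 (-0.03 to 0.20), and SLC31A2, an endosomal copper transporter, by -0.08 (-0.17 to 0.02). The second probe set of SLC31A2, around the control level at 5.81 and 5.60 on average, passed as lower (adjusted p = 0.00325).

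Of 8 further copper genes, 2 rose and 2 fell, where 19.8% of all genes rose and 22.9% fell. COX11, which inserts copper into cytochrome c oxidase, measured 9.59 to 9.81 in 2D and 9.19 to 9.32 in 3D and fell by 0.47 (SE 0.05, limma adjusted p = 9.2e-07). SCO1, which serves the same enzyme, measured 10.51 to 10.68 and 10.82 to 10.96 and rose by 0.23 (SE 0.05, adjusted p = 0.000765). LOX, the copper enzyme that cross-links collagen, measured 5.88 to 6.23 in 2D and 6.24 to 6.58 in 3D and rose by 0.40 (SE 0.07, adjusted p = 0.000391). CUTC fell by 0.26 (adjusted p = 0.012). The first 3 of these had groups that did not overlap, so the assembly factors COX11 and SCO1 moved apart. With the RNA ratio in the fit COX11 and SCO1 passed, at -0.55 and 0.31, and LOX and CUTC did not (adjusted p = 0.118 and 0.741).

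Of the magnesium transporters, which carry none of these 3 metals as their main cargo, 2 of 3 rose. SLC41A2 measured 8.05 (lowest), 8.28 (median) and 8.50 (highest) in 2D and 9.0, 9.24 and 9.40 in 3D. It was 1.90-fold higher in 3D (log2 difference 0.93, SE 0.09, limma adjusted p = 3.41e-07), and its other probe sets rose by 0.75 and 0.85. SLC41A3, described in mitochondria, measured 7.33, 7.52 and 7.64 in 2D and 8.28, 8.40 and 8.50 in 3D, 1.85-fold higher (log2 difference 0.89, SE 0.06, adjusted p = 2.1e-08). In both genes all 3D arrays lay above all 2D arrays, by 0.50 and 0.64 at the nearest values. With the RNA ratio in the fit the differences were 0.81 and 0.69, and both passed. SLC41A1, the plasma membrane member, was near the control level and did not pass (adjusted p = 0.305).

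Other channels and carriers of magnesium came from a textbook list. Of 11 measured, 1 rose and 1 fell, where 19.8% and 22.9% of all genes did: NIPA2 rose by 0.18 (SE 0.05, limma adjusted p = 0.00518), CNNM1 fell by 0.19 (SE 0.06, adjusted p = 0.0179), and 9 did not pass, among them the channels TRPM6 and TRPM7. Neither NIPA2 nor CNNM1 had groups that were apart, and neither passed with the RNA ratio in the fit (adjusted p = 0.39 and 0.302). Both probe sets of NIPA2 rose, while of the 4 of CNNM1, 2 fell and 2 did not pass. The mean over those of CNNM1 differed by -0.10 and did not pass (limma adjusted p = 0.132).

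**Figure D4:**
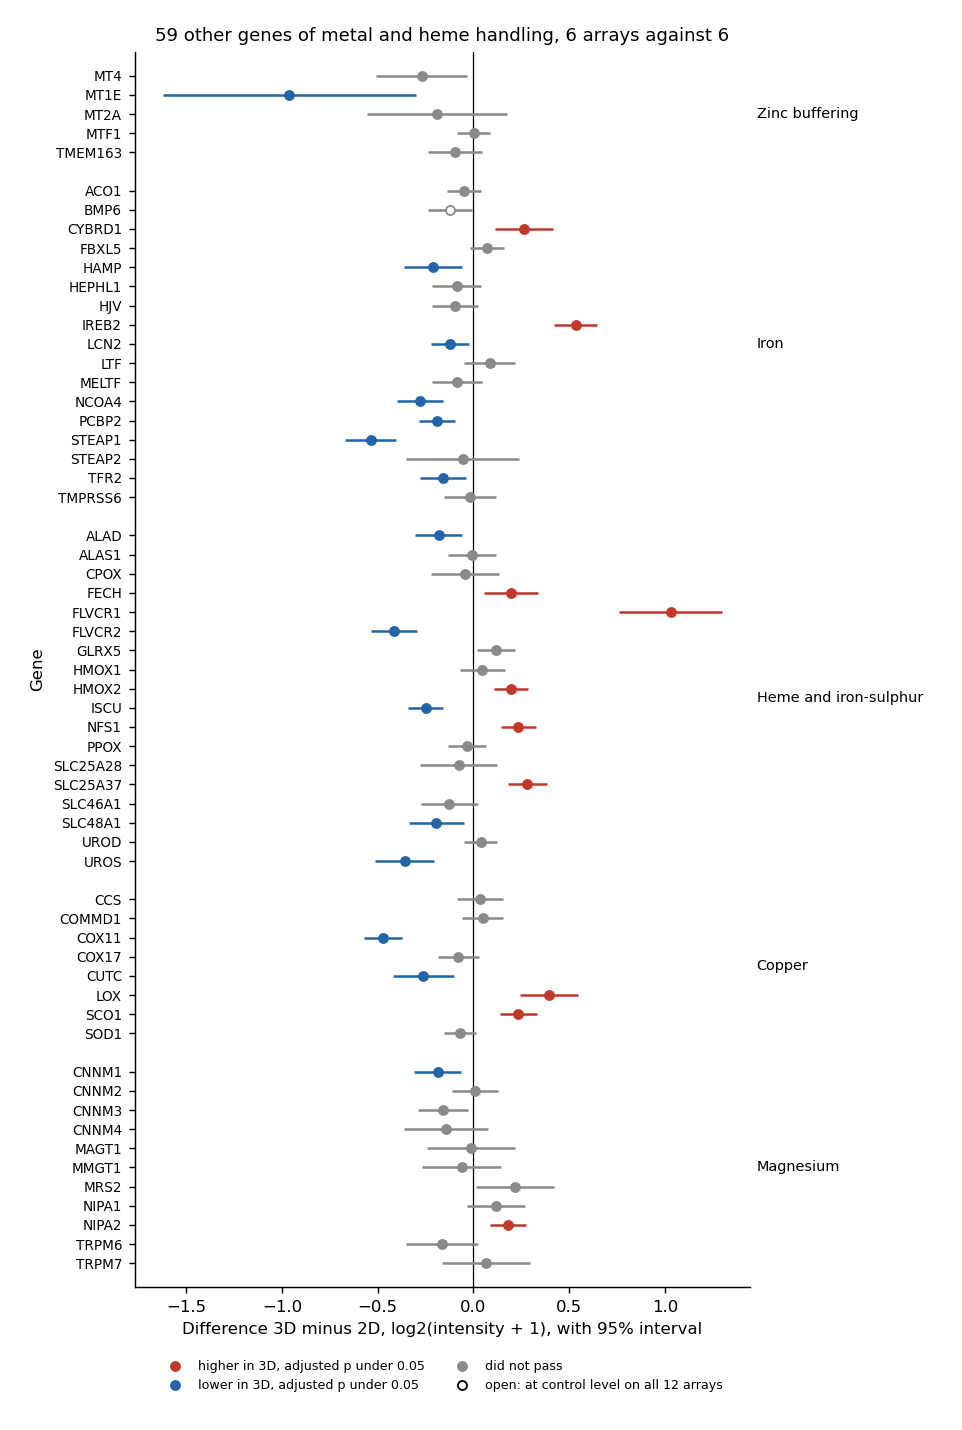
Difference between 3D and 2D in log2(intensity + 1) for 59 other genes of metal and heme handling (x axis), grouped by metal (y axis), with the 95% interval from limma. FLVCR1 at 1.03 is the sole gene past 2-fold, MT1E at -0.96 has the widest interval, and 34 of the genes did not pass.

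Over all 59 of these other genes, 10 rose and 15 fell, with a median difference of -0.06, where 19.8% and 22.9% of all genes rose and fell. The groups were apart, with 3D higher, in 7 and, with 3D lower, in 6, where 13.2% and 9.49% of all genes were. With the RNA ratio in the fit 7 rose and 7 fell. FLVCR1, STEAP1, IREB2 and COX11 passed under every alternative tried.

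Read by probe set rather than by gene, 18 of the 66 rose and 13 fell, where 16.7% and 22.0% of all 42924 tested probe sets did. Those 42924 include probe sets that do not name a single gene, unlike the 66. Of the 39 genes, 21 had 1 probe set and 18 had several, of which 9 gave the same call with all of them. SLC41A2 (3 of 3), CP and SLC39A10 (2 of 2 each) rose with every probe set, and SLC30A2 fell with both of its probe sets, at the control level. Calls were split for SLC11A2, SLC30A3, SLC30A7, SLC31A2, SLC39A8, SLC39A12, SLC39A13 and SLC40A1, where some probe sets passed and others did not, and for SLC11A1.

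**Figure D5:**
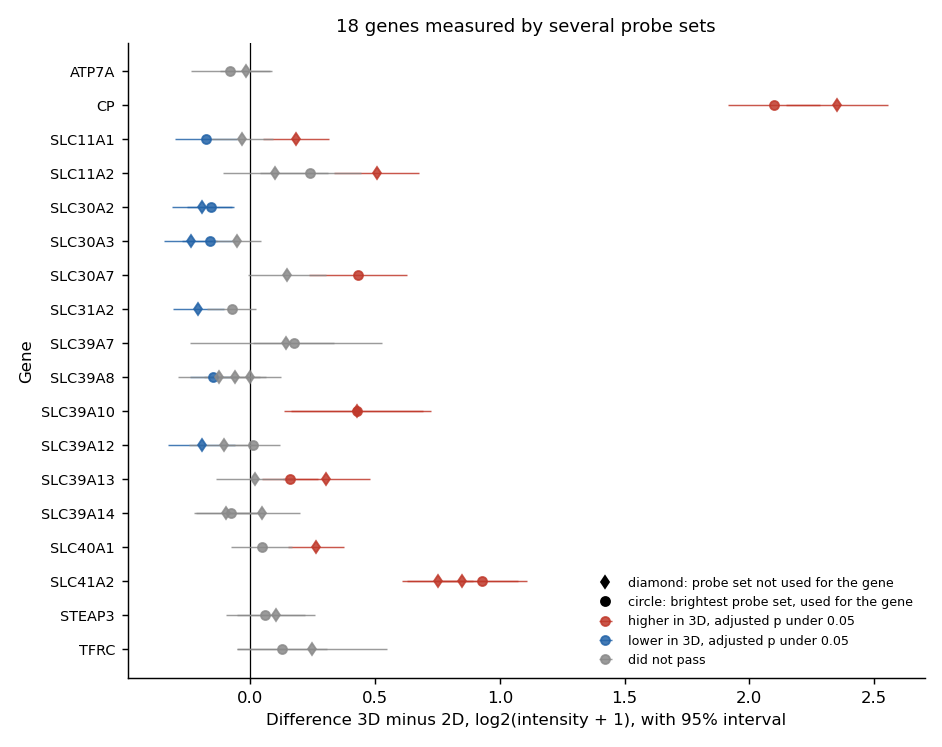
Difference between 3D and 2D in log2(intensity + 1), with the 95% interval from limma, for every probe set of the 18 genes measured by several (circles, the brightest; diamonds, the others). The marks of CP lie at 2.10 and 2.35 and the 3 of SLC41A2 between 0.75 and 0.93, whereas those of SLC11A1 lie on both sides of 0.

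Dim genes were treated apart. The mean of 33 of the 39 genes was above the control level, and of these 10 rose and 7 fell, where 23.5% and 23.6% of such genes in the whole series did. The other 6 (SLC30A2, SLC30A4, SLC30A8, SLC39A12, ATP7A and SLC41A1) had 0 raised and 2 lowered in limma, and at that level 2.77% of all genes rose and 19.9% fell. Lower values at the control level were thus common over the whole array. Above that level, SLC11A1, SLC30A3 and SLC39A8, which fell, had lower means in both groups than the leukocyte marker CD3E. CD3E averaged 7.27 in 2D and 7.08 in 3D and fell by 0.19, so whether these small falls reflect expressed transcripts is uncertain.

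Single arrays weighed on the small differences. Over the 39 genes, 3D replicate 2 had the lowest value of its group in 18 and the highest in 8, and 2D replicate 6 in 13 and 11, where an even share would be 13 extremes per array. Of the 3D arrays, replicate 2 lay nearest the 2D mean in 12 genes, 8 of them among the 19 that passed. Its RNA control ratio of -0.88 was the lowest of the 3D arrays and fell within the 2D range of -1.09 to -0.75. Without it, SLC30A6 rose by 0.39 (limma adjusted p = 0.00488) and SLC30A10 fell by 0.24 (adjusted p = 0.0111), beside the importers, SLC11A2 and SLC31A1 given above. The differences of SLC30A6 and SLC30A10 turned with the RNA ratio in the fit, to -0.25 and 0.03, and neither passed. SLC30A8, at the control level, was the remaining gene gained without the array. Without 2D replicate 6 the 39 genes counted 9 raised and 7 lowered. The difference of HEPH, the gene in which that array stood out, was between 1.28 and 1.58 over all alternatives.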

How the data were processed

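The authors deposited linear intensities, 1 for each of 43035 probe sets on every array. They were made with GCRMA (background correction and summary of probes), per the submitters' processing notes, which give no version. How probe sets were defined, and whether values were scaled afterwards, is not given in the sources used here. Arrays were grouped by the labels. No further normalization was applied before taking log2(intensity + 1). Adding 1 makes the fold changes of dim genes slightly smaller. After 111 control probe sets were left out, 42924 were fitted with limma 3.58.1 (lmFit and eBayes, group as the only term, no filter) in R 4.3.3, and figures were drawn with matplotlib 3.10.9. Adjustment was Benjamini-Hochberg over all of these. Depth has no meaning for arrays, and their number limits the precision. The calculation was tested on simulated data.

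A gene with its mean at or below the control level is given no fold in the text. The members, gene lists and alternatives were chosen with earlier results of these data known. Every gene of the rule may be named, with values for those that passed and for FTH1, FTL, TFRC, SLC40A1, SLC11A2, SLC31A1 and ATP7A. Of the other genes, the text names, of those that passed, the 4 or fewer that changed most in each role, besides the metallothioneins, MTF1, ACO1, IREB2, HMOX1 and NCOA4. SLC30A1 was on this list and is not analysed here. Named outside these choices were HEPHL1, TRPM6 and TRPM7, which did not pass, and HAMP and TFR2, which held flagged values. Gene names come from the platform annotation, and 37 of the 39 gene identifiers were found in RefSeq (assembly UU_Cfam_GSD_1.0) with the same symbol. The 3 probe sets naming a member together with another gene were left out, and sequences and motifs were not used here. Values of the 16 genes measured by a probe set ending in _s_at or _x_at may include related genes. The alternatives were a filter of log2 above 6 on at least 6 arrays, quantile normalization, median centring, a pseudocount of 16, array weights, a robust variance prior with a trend, a minimum of 1.2-fold, the replicate number as a block, the RNA control ratio as a covariate, leaving out each array or both 2D replicate 6 and 3D replicate 2, and the mean over a gene's probe sets.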

Additional observations from a re-analysis of the deposited data

Results flagged for a closer look

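In 138 groups of 6 arrays (78 of them from the 39 genes, the others from further metal and heme genes that passed or are named by rule), the highest and lowest values were compared with the rest by Dixon's criterion. In 15 groups a value lay farther out than the critical value of 0.625 allows, where chance gives about 1 in 20. Replicate 2 of 3D held 9 of the 15 and replicate 6 of 2D held 2.

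On 3D replicate 2, SLC11A2 was low at 7.87, SLC30A9 at 7.67, SLC39A1 at 8.68, SLC39A6 at 8.39, SLC39A11 at 7.73, SLC39A13 at 7.88 and NIPA2 at 10.32. On the same array SLC30A4, at the control level, was high at 5.51 and SCO1 at 10.96. On 2D replicate 6, HEPH was high at 6.34 and HAMP, the gene of the iron hormone hepcidin, at 7.72. Elsewhere ATP7A was high on 2D replicate 1 at 5.97 and SLC39A2 on 3D replicate 5 at 7.36. TFR2, the second transferrin receptor, was low on 3D replicate 3 at 5.97 and CYBRD1 on 3D replicate 1 at 5.48.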

How the results depend on the processing

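CP, HEPH, SLC39A4, SLC41A2 and SLC41A3 kept direction and call under all 11 alternatives and without each of 12 arrays. The cause of the moves below was not tested, apart from the minimum change of 1.2-fold and the filter, which by construction call or test fewer. Main counts were 10 raised and 9 lowered genes, 18 raised and 13 lowered probe sets, and 10 raised and 15 lowered other metal genes. A minimum of 1.2-fold gave 4 and 1 genes, 7 and 1 probe sets, and 2 and 2 other genes. The RNA ratio as a covariate gave 5 and 3 genes, 9 and 4 probe sets, and 7 lowered other genes. It turned the sign of 12 of the 39 genes and 11 of the 59 others, most of them without a call in either fit. Among those called in one of the fits it reversed SLC30A9 to -0.018, SLC39A9 to -0.31 and HAMP to 0.020. Array weights raised 16 genes, and so did leaving out both 2D replicate 6 and 3D replicate 2. The filter lowered 8 probe sets. Without 1 array, 7 to 16 genes rose and 6 to 11 fell, 14 to 25 probe sets rose and 10 to 15 fell, and 9 to 12 other genes rose and 10 to 16 fell. Raised genes were 16 without 3D replicate 2 and between 7 and 11 without any other. Quantile normalization gave 15 genes, 14 of them shared. No scaling moved the median of all probe sets by as much as 0.05.

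Same-numbered arrays of 2D and 3D correlated at 0.00 to 0.36 in their deviations, above 0.1 in 3 of 6 pairs, and 4 of 6 matched their own number best. These values do not settle whether the numbers pair the samples, and the main fit took them as unpaired. With the replicate number as a block, 11 genes rose and 9 fell, 20 probe sets rose and 13 fell, and 11 other genes rose and 16 fell.

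The number of arrays limits the precision. Of the 20 genes that did not pass, the 95% intervals reached from -0.35 to 0.54, and 13 passed under some alternative.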
